A study of Mus musculus with 10 samples.

Results

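The tumour necrosis factor (TNF) superfamily comprises signalling proteins, the ligands, and the cell-surface receptors that bind them. The 33 genes described here, 12 ligands and 21 receptors, were chosen by symbol and make up 33 of the 16667 genes in the table of normalized counts. All 33 were found in that table and in the companion table of TPM, a unit that corrects for gene length and library size. The samples were visceral fat from wild-type C57BL/6 mice, 10 weeks old in both groups, and the sample titles carry the ending gwat, read here as gonadal white fat. The 5 sham mice had control surgery without a tumour, and the 5 KPC mice carried an orthotopic KPC pancreatic tumour, that is, a tumour of the KPC mouse model of pancreatic cancer placed in the pancreas. Each library came from a sample with its own label, and the p-values measure the spread between these samples.

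Most ligands of the family are made as trimeric membrane proteins, and many are released by proteases such as ADAM17. Some receptors, among them Fas and the receptors for TNF and for TRAIL, carry or can engage death domains and can start apoptosis, while others recruit TRAF adapters and switch on NF-kB. In fat, TNF from macrophages is known to raise lipolysis and to blunt the response of fat cells to insulin. LIGHT, lymphotoxin and BAFF ligands serve mainly in communication between lymphocytes, myeloid cells and stroma.

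Totals of normalized counts ran from 20941242 to 24449863 per library. Adipoq, which encodes the fat cell hormone adiponectin, had 4290 ± 559 TPM in the sham group and 4264 ± 673 TPM in the KPC group (SD, n = 5 each). The pancreatic and epithelial genes Prss2, Cpa1 and Epcam did not exceed 0.124, 0.0783 and 0.119 TPM in any library. Their list held 5 genes, of which 2 were abundant enough to be tested, so these low values do not speak for the whole list. KPC mouse 1 stood apart, with 15.7% of TPM from mitochondrially encoded genes where the other 9 libraries had 26.3% to 33.3%, and a median correlation of 0.908 with the other libraries where theirs were 0.939 to 0.959. Several results that it moves are given with and without it. Skeletal muscle transcripts, summed over 5 genes, reached 1124 TPM in sham mouse 4 and 3197 TPM in sham mouse 5, against 79.6 to 244 TPM for KPC mice.

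Promoter sequences are shown first for 4 of the 7 genes that were higher in KPC mice at an unadjusted limma p under 0.05. They let the reader see which short motifs lie before the RefSeq start sites used. RefSeq promoters on GRCm38.p6, the assembly also called mm10, were matched for 28 of the 33 genes, with 32 windows in all. The 250 bases before each start site were searched on both strands. The palindrome TTCNNNGAA, the gamma-activated site that STAT factors can bind, lay in 8 of the 32 windows and in 7.02% of all 32851 promoter windows. It was present for Tnfrsf1a, Tnfrsf1b, Fas, Tnfrsf9, Tnfrsf18, Tnfrsf25, Ltb and Lta. A match is a description of letters and shows neither binding nor use. The sites of Tnfrsf1b, Fas and Tnfrsf1a, with the motif in capitals, read 5′ to 3′ along the gene:
Tnfrsf1b, minus strand, chr4:145247033-145247061: agcgcattcaTTCCCGGAAgagatgctgg
Fas, plus strand, chr19:34290556-34290584: tcaaagcgatTTCTGGGAAgacctgaata
Tnfrsf1a, plus strand, chr6:125349473-125349497: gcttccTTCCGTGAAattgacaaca
The Tnfrsf1a site overlaps an annotated GENCODE exon, and the other 2 do not. Start sites are those of RefSeq and need not be the GENCODE gene start. For Tnfrsf1a, Tnfrsf9, Tnfrsf18 and Tnfrsf25 the gamma-activated site lies inside the GENCODE gene span, downstream of its start. The Tnfrsf1a span, for example, starts at 125349362.

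Other motifs were searched in the same way, before the same RefSeq start sites. The AP-1 letters TGANTCA lay before Fas, Tnfsf13, Tnfsf13b, Tnfsf14 and Tnfrsf9 (5 windows, 6.75% of all windows). The interferon-stimulated response element core lay before Tnfrsf14, Tnfrsf1b and Tnfsf13b (3 windows, 2.98% of all). TATAAA lay before Tnf, Lta, Tnfsf11 and Eda2r (4 windows, 12.4% of all). The kB consensus lay before Ltb, Tnfrsf9 and Tnfrsf25 (3 windows, 7.25% of all), and the second of its matches before Tnfrsf9 overlaps the first by all but a single base. Whole windows of 250 bases are printed for the ligand gene Tnfsf14 and the receptor genes Tnfrsf1b and Fas, with matches to the gamma-activated, AP-1, TATA and interferon-stimulated letters on either strand in capitals:
Tnfsf14, minus strand, chr17:57194182-57194431: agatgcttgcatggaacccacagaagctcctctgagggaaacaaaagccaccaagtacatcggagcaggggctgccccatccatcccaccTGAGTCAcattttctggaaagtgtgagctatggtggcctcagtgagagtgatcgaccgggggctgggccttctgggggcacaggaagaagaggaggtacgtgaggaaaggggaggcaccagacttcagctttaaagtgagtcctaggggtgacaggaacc
Tnfrsf1b, minus strand, chr4:145246871-145247120: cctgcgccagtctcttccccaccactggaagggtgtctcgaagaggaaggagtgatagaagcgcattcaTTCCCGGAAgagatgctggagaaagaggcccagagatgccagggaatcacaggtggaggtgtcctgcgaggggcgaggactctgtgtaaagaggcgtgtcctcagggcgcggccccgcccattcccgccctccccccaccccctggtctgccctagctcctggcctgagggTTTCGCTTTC
Fas, plus strand, chr19:34290409-34290658: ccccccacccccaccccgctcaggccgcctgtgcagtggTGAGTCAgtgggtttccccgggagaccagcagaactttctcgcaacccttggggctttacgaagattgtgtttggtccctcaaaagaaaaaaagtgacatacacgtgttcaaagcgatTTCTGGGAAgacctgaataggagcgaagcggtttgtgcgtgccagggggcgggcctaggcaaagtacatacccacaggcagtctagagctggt

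The comparison of KPC with sham mice asks whether transcripts of these ligands and receptors differed in fat when a pancreatic tumour was present. None of the family genes passed the test over all genes in either direction. Those closest to it were the receptors for TNF, Tnfrsf1a and Tnfrsf1b, and the ligand Tnfsf14 (LIGHT), all higher on average in KPC mice, while Tnf itself was close to the limit of measurement in both groups. Of the 33 genes, 27 had a mean of at least 10 normalized counts and were tested with limma on log2(normalized count + 1). The other 6, Tnf, Lta, Tnfsf11, Tnfsf15, Tnfrsf4 and Tnfrsf13c, were lower and are given as values. At a Benjamini-Hochberg adjusted p under 0.05, 0 of the 27 were called higher and 0 lower, where 0.0493% of all 14203 genes tested were called higher and 0.00704% lower.

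At an unadjusted limma p under 0.05, 7 of the 27 were higher in KPC (25.9%) and 0 lower. Over all genes tested 7.61% were higher and 5.91% lower at that threshold. The 7 were the ligands Tnfsf13 and Tnfsf14 and the receptors Tnfrsf1a, Tnfrsf1b, Tnfrsf14, Tnfrsf21 and Fas. For 2 of the 27, Tnfsf14 and Tnfrsf1a, the 5 KPC mice exceeded all 5 sham mice (7.41%, against 2.75% of all genes), and for 0 they lay below (1.28% of all genes). The log2 difference was above 0 for 20 of 27, against 46.9% of all genes, with a median of 0.34 where the median over all genes was -0.02. Without KPC mouse 1, 5 of 26 were higher at an unadjusted p under 0.05 (19.2%, against 7.14% of all genes), 18 of 26 had a positive difference, and the median was 0.17. Without any 1 of sham mice 1, 2, 3 and 4 or KPC mouse 4, the count was 4 of 27, against 5.5% to 7.0% of all genes.

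**Figure D1:**
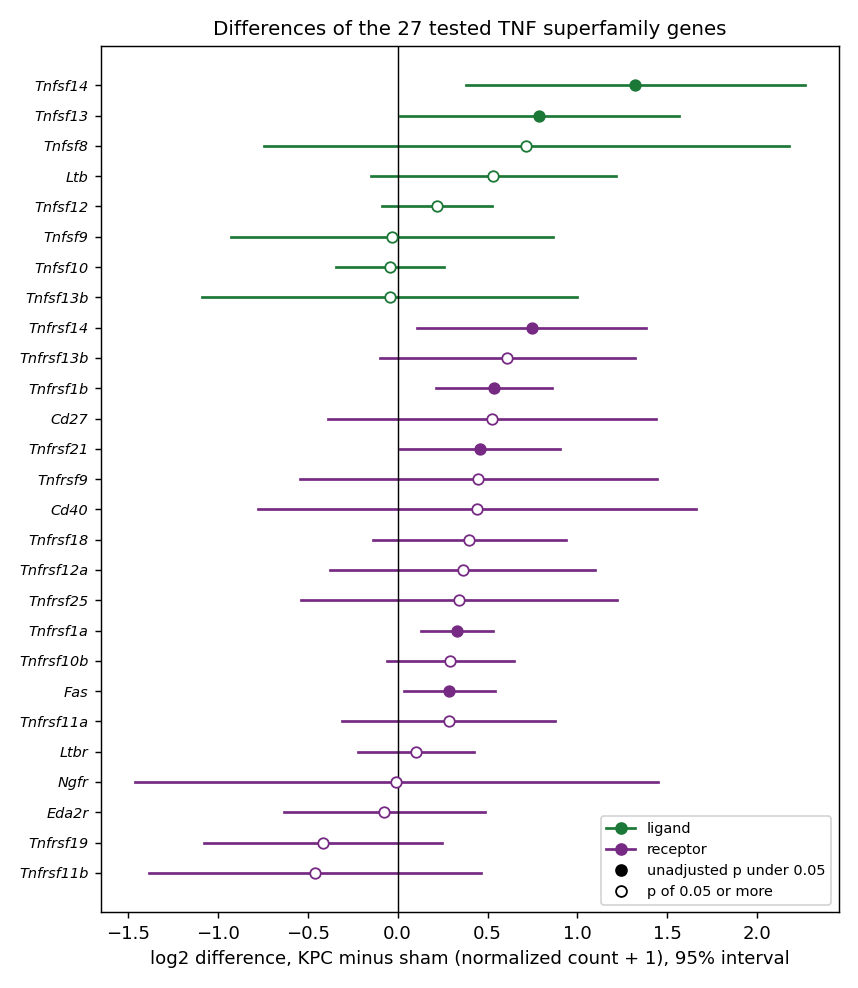
Log2 difference between KPC and sham mice (x axis, on normalized count + 1) for the 27 tested genes (y axis), ligands in green above and receptors in purple below. Bars are 95% intervals from limma with 5 mice a group, and filled points mark the 7 genes with an unadjusted p under 0.05, all to the right of 0.

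The founding ligand and its neighbours were scarcely transcribed. Tnf encodes TNF, and it was listed at 0.212, 0.244, 0.0464, 0.161 and 0.121 TPM in sham mice 1 to 5 and at 0.339, 0.224, 0.114, 0.0446 and 0.193 TPM in KPC mice 1 to 5, with a mean of 4.53 normalized counts. The groups overlapped throughout, and the highest and the lowest library were both KPC mice. Lta, which encodes lymphotoxin alpha, stood at 0 to 0.162 TPM for sham and 0 to 0.153 TPM for KPC mice. At this depth no difference could be read for either gene. Ltb encodes lymphotoxin beta, which anchors lymphotoxin alpha on lymphocytes, and stood at 1.26, 1.53, 1.17, 1.19 and 2.58 TPM in sham mice 1 to 5 and 3.21, 1.78, 1.41, 1.97 and 2.61 TPM in KPC mice 1 to 5. Its log2 difference was 0.53 ± 0.31 (SE) with a limma adjusted p of 0.472, and KPC mice 2, 3 and 4 lay below sham mouse 5. On GRCm38 with GENCODE vM21, these 3 genes are protein-coding and adjoin on chromosome 17: Ltb (ENSMUSG00000024399) from 35194439 to 35196320 on the plus strand, Tnf (ENSMUSG00000024401) from 35199381 to 35202007 and Lta (ENSMUSG00000024402) from 35203165 to 35205351 on the minus strand.

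The receptors for TNF were far more abundant than the ligand. Tnfrsf1a encodes TNF receptor 1, the death-domain receptor found on most cells, and had the highest level of the 33 genes. It stood at 104, 106, 108, 104 and 113 TPM in sham mice 1 to 5 and at 150, 117, 121, 137 and 134 TPM in KPC mice 1 to 5. No KPC mouse was as low as any sham mouse, though KPC mouse 2 was only just above sham mouse 5. The group means were 107 ± 3.68 and 132 ± 13.0 TPM (SD, n = 5 each), a fold of 1.26 on the scale of normalized count + 1 (95% interval 1.09 to 1.44). The log2 difference of 0.33 ± 0.09 had an unadjusted p of 0.00380 and an adjusted p of 0.190 by limma. Over the 22 alternatives the adjusted p ranged from 0.0424, with libraries weighted by limma's array weights, to 0.511. That weighted fit was the only alternative that called Tnfrsf1a, and it called 1.21% of all genes higher. Without KPC mouse 1 the log2 difference was 0.27 ± 0.07 and the adjusted p 0.131.

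Tnfrsf1b encodes TNF receptor 2, which lacks a death domain and is found mainly on leukocytes and endothelium. Sham mice 1 to 5 had 10.2, 15.4, 15.9, 13.8 and 16.8 TPM, and KPC mice 1 to 5 had 24.7, 16.7, 21.1, 23.3 and 16.2 TPM. KPC mice 1, 3 and 4 exceeded the whole sham group, while KPC mice 2 and 5 lay just below sham mouse 5. The means were 14.4 ± 2.59 and 20.4 ± 3.83 TPM, with a log2 difference of 0.54 ± 0.15, an unadjusted p of 0.00363 and an adjusted p of 0.189 by limma (0.0957 to 0.501 over the 22 alternatives). Whether the receptors differed unequally was asked within each mouse, as log2 of Tnfrsf1b minus log2 of Tnfrsf1a. That value was -2.05 ± 0.255 in sham and -1.85 ± 0.221 in KPC mice (SD, n = 5 each), a difference of 0.21 (95% interval -0.15 to 0.55). The exact two-sided permutation test gave p = 0.222 and an adjusted p of 0.444 over the 2 within-mouse comparisons made, where the smallest p that 5 mice against 5 allow is 0.00794. Tnfrsf1a (ENSMUSG00000030341) lies on chromosome 6 from 125349362 to 125362484 on the plus strand, 35476 bases from Ltbr, and Tnfrsf1b (ENSMUSG00000028599) on chromosome 4 from 145213463 to 145246870 on the minus strand.

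Most markers of myeloid cells were also higher on average in KPC mice. The 7 macrophage genes examined (Adgre1, Cd68, Csf1r and others) all had positive differences, 6 with an unadjusted limma p under 0.05. At that threshold 7.61% of all genes tested were higher, while 46.9% had a positive difference. The summed level of the 7 ran from 119 to 205 TPM for sham and from 185 to 456 TPM for KPC mice, or to 287 TPM without KPC mouse 1. None of the 7 was listed at 0. Of 6 monocyte genes, 5 had positive differences and 4 of these an unadjusted limma p under 0.05. Monocyte genes summed to 125 to 276 TPM for sham and 193 to 811 TPM for KPC mice, with 268 TPM the highest without KPC mouse 1. The neutrophil list, with 5 of 5 positive, ran from 13.3 to 58.3 TPM for sham and 17.8 to 250.5 TPM for KPC mice, or to 71.0 TPM without KPC mouse 1. Dendritic cell genes, with 6 of 6 positive, ran from 15.8 to 27.3 TPM for sham and 29.6 to 39.3 TPM for KPC mice. Endothelial genes, with 1 of 4 positive, ran from 193 to 244 TPM for sham and 129.6 to 308 TPM for KPC mice, and 4 of 4 were positive without KPC mouse 1. With all mice, 1 of 5 neutrophil, 2 of 6 dendritic cell and 0 of 4 endothelial genes were higher at an unadjusted limma p under 0.05. The part of these cells in the family's differences was not tested, and in whole tissue more cells of a type and more RNA per cell cannot be told apart.

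**Figure D2:**
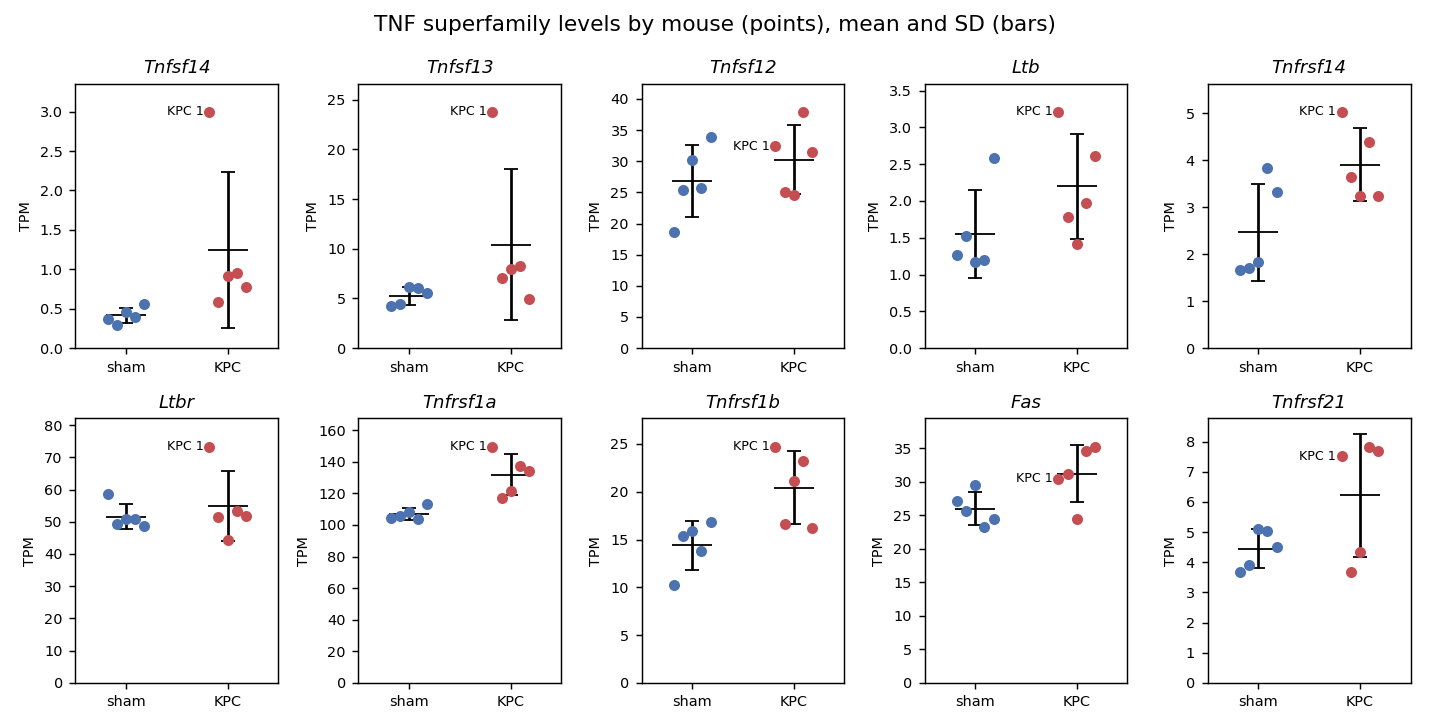
TPM (y axis, from 0) of 4 ligands and 6 receptors in each sham (blue) and KPC (red) mouse, with the group mean and SD in black and KPC mouse 1 labelled. Tnfrsf1a and Tnfsf14 show no overlap between groups, and KPC mouse 1 is the highest mouse for 7 of the 10 genes shown.

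Tnfsf14 had the largest log2 difference of the 27 tested genes. It encodes LIGHT, a ligand of T cells and myeloid cells that binds the herpesvirus entry mediator, encoded by Tnfrsf14, and the lymphotoxin beta receptor, encoded by Ltbr. It stood at 0.373, 0.294, 0.460, 0.390 and 0.558 TPM in sham mice 1 to 5 and at 3.00, 0.582, 0.919, 0.959 and 0.778 TPM in KPC mice 1 to 5. The groups did not overlap, with KPC mouse 2 above sham mouse 5 by a narrow margin, and KPC mouse 1 lay far above the other KPC mice. The means were 0.415 ± 0.0992 and 1.25 ± 0.989 TPM, and the KPC mean was 0.809 ± 0.170 TPM without KPC mouse 1. The log2 difference of 1.32 ± 0.43 was a fold of 2.50 (95% interval 1.30 to 4.81), with an unadjusted p of 0.0102 and an adjusted p of 0.255 by limma, and it was 0.93 ± 0.31 without KPC mouse 1. Tnfsf14 had a mean of only 26.5 normalized counts, so its low values carry more counting error than those of the receptors.

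Tnfrsf14 stood at 1.66, 1.70, 1.84, 3.84 and 3.33 TPM in sham mice 1 to 5 and at 5.03, 3.65, 3.25, 4.39 and 3.23 TPM in KPC mice 1 to 5. Sham mice 1, 2 and 3 were low, and sham mice 4 and 5, the libraries with the most skeletal muscle transcripts, reached into the KPC range. Any part of muscle in the level of Tnfrsf14 was not tested. The log2 difference of Tnfrsf14 was 0.74 ± 0.29, with an unadjusted p of 0.0262 and an adjusted p of 0.314 by limma. It was 0.64 ± 0.30 with an unadjusted p of 0.0582 without KPC mouse 1. Ltbr, the other LIGHT receptor and the second most abundant gene of the 33, stood at 58.6, 49.2, 50.7, 50.7 and 48.8 TPM in sham mice 1 to 5 and at 73.3, 51.5, 44.3, 53.2 and 51.8 TPM in KPC mice 1 to 5. Apart from mouse 1 of each group the levels lay close together. The log2 difference of Ltbr was 0.10 (95% interval -0.22 to 0.42), and it was -0.02 without KPC mouse 1. Tnfsf14 (ENSMUSG00000005824, chromosome 17, 57189492 to 57194177, minus strand) and Tnfrsf14 (ENSMUSG00000042333, chromosome 4, 154921933 to 154928563, minus strand) are protein-coding. Tnfsf9, the ligand of 4-1BB on T cells, lies 81734 bases from Tnfsf14 and Cd70, the ligand of CD27, lies between them. Tnfsf9 stood at 0.860 ± 0.280 TPM for sham and 0.877 ± 0.517 TPM for KPC mice, and Cd70 was listed at 0 in all 10 libraries.

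The ligands of the APRIL, TWEAK and TRAIL branches were the most abundant ligands. Tnfsf13 encodes APRIL, a survival factor for plasma cells that myeloid cells release. Sham mice 1 to 5 had 4.24, 4.43, 6.17, 6.03 and 5.57 TPM of it, and KPC mice 1 to 5 had 23.8, 7.11, 7.96, 8.27 and 4.98 TPM. KPC mice 1 to 4 exceeded the whole sham group and KPC mouse 5 lay within the sham range. The log2 difference was 0.79 ± 0.35 (unadjusted p = 0.0471, adjusted p = 0.363 by limma), and it was 0.42 ± 0.18 (unadjusted p = 0.0415) without KPC mouse 1. Tnfsf12 encodes TWEAK, a ligand of macrophages and other cells, and stood at 18.7, 25.4, 30.2, 25.7 and 33.9 TPM in sham mice 1 to 5 and 32.4, 25.0, 24.6, 37.9 and 31.5 TPM in KPC mice 1 to 5. The groups overlapped over most of their range, with a log2 difference of 0.22 ± 0.14 and an adjusted p of 0.508 by limma.

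Tnfsf13 (ENSMUSG00000089669, chromosome 11, 69682846 to 69685784) and Tnfsf12 (ENSMUSG00000097328, chromosome 11, 69686250 to 69695849) lie 465 bases apart on the minus strand. Tnfsfm13, a gene that spans both on the same strand, was listed at 6.27 to 13.2 TPM. Reads were divided among the 3 by estimate, which leaves the levels of Tnfsf12 and Tnfsf13 uncertain. Tnfsf10 encodes TRAIL, a ligand that can start apoptosis through its death receptor, and stood at 5.37, 6.33, 7.27, 5.80 and 7.23 TPM in sham mice 1 to 5 and at 4.80, 6.32, 7.02, 5.19 and 7.22 TPM in KPC mice 1 to 5. These values cover the same range in both groups, and the log2 difference was -0.04 (95% interval -0.34 to 0.26).

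Among death receptors, Fas was higher on average in KPC mice. Fas encodes the receptor for Fas ligand and stood at 27.2, 25.6, 29.5, 23.3 and 24.4 TPM in sham mice 1 to 5 and at 30.4, 31.2, 24.5, 34.5 and 35.2 TPM in KPC mice 1 to 5. All KPC mice but number 3 exceeded the whole sham group. The log2 difference was 0.29 ± 0.11 (unadjusted p = 0.0281, adjusted p = 0.323 by limma). Tnfrsf21, which encodes death receptor 6, stood at 3.69, 3.91, 5.10, 5.02 and 4.52 TPM in sham mice 1 to 5 and 7.52, 3.67, 4.35, 7.83 and 7.70 TPM in KPC mice 1 to 5. KPC mice 1, 4 and 5 were high, and KPC mice 2 and 3 lay in or below the sham range. Its log2 difference was 0.46 ± 0.20 (unadjusted p = 0.0453, adjusted p = 0.359 by limma), and 0.35 ± 0.20 (unadjusted p = 0.104) without KPC mouse 1. Tnfrsf10b, the mouse receptor for TRAIL, stood at 4.53, 4.67, 4.74, 3.55 and 3.84 TPM in sham mice 1 to 5 and at 5.32, 4.84, 5.51, 6.25 and 3.83 TPM in KPC mice 1 to 5. Only KPC mouse 5 fell among the sham values, and the log2 difference was 0.29 ± 0.16 with an adjusted p of 0.444 by limma. Fas (ENSMUSG00000024778) lies on chromosome 19 from 34290666 to 34327772 on the plus strand, and Tnfrsf21 (ENSMUSG00000023915) on chromosome 17 from 43016555 to 43089189 on the plus strand.

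Tnfrsf12a, which encodes Fn14, the TWEAK receptor that is switched on in injured tissue, varied widely within both groups. It stood at 16.8, 34.7, 24.8, 32.7 and 17.8 TPM in sham mice 1 to 5 and at 48.8, 48.5, 14.5, 28.9 and 26.9 TPM in KPC mice 1 to 5. KPC mice 1 and 2 were the highest of the 10 and KPC mouse 3 the lowest. The log2 difference was 0.36 (95% interval -0.37 to 1.10). Within mice, log2 of Tnfrsf12a minus log2 of its ligand Tnfsf12 was -0.70 ± 0.552 in sham and -0.56 ± 0.715 in KPC mice (SD, n = 5 each). That difference of 0.14 (95% interval -0.74 to 1.09) had an exact two-sided permutation p of 0.714, also 0.714 after adjustment over the 2 comparisons, and its sign turned without sham mouse 5 (-0.06) or KPC mouse 2 (-0.09).

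The remaining genes of the BAFF and APRIL system stood at lower mean TPM levels than Tnfsf13. Tnfsf13b encodes BAFF, the survival factor of B cells, and stood at 1.19 to 3.50 TPM for sham and 0.697 to 4.89 TPM for KPC mice, or to 2.01 TPM without KPC mouse 1. Its log2 difference was -0.04 ± 0.48 with that mouse and -0.41 ± 0.40 without it. Tnfrsf13b encodes TACI, a receptor for both ligands, and stood at 2.01, 1.605, 1.86, 3.33 and 2.65 TPM in sham mice 1 to 5 and at 7.04, 3.23, 2.91, 2.74 and 2.20 TPM in KPC mice 1 to 5. KPC mouse 1 was the only mouse clearly above the rest, and the log2 difference of 0.61 ± 0.32 (limma adjusted p = 0.430) was 0.32 ± 0.23 without it. Tnfrsf13c encodes the BAFF receptor of B cells, and was listed at 0.234, 0.524, 0.301, 0.145 and 0.0585 TPM in sham mice 1 to 5 and at 0, 0.162, 0.0517, 0.128 and 0 TPM in KPC mice 1 to 5. It was below the level of testing, and the ranges overlapped. Among B cell markers, Ms4a1 had 0.741 ± 0.0640 TPM for sham and 0.574 ± 0.100 TPM for KPC mice. In normalized counts its KPC mice lay below all sham mice, as for 1.28% of all genes. In TPM the groups overlapped, with sham mouse 1 at 0.653 and KPC mouse 3 at 0.658. Cd79a had 1.59 ± 0.421 and 1.20 ± 0.271 TPM, Cd79b 2.14 ± 0.573 and 2.65 ± 0.891 TPM and Ighm 360 ± 123 and 306 ± 181 TPM, sham first, and none of these 4 reached an unadjusted p under 0.05.

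Costimulatory receptors of lymphocytes stood at low levels. Tnfrsf18 encodes GITR, found on regulatory T cells, and stood at 2.38, 2.09, 3.61, 3.36 and 2.03 TPM in sham mice 1 to 5 and at 3.99, 3.26, 2.94, 4.49 and 2.63 TPM in KPC mice 1 to 5, with a log2 difference of 0.40 ± 0.24 and an adjusted p of 0.489 by limma. The groups overlapped over most of their range. Cd27 ranged from 0.378 to 2.04 TPM for sham and 0.950 to 1.69 TPM for KPC mice. Tnfrsf9, which encodes 4-1BB, ranged from 0.585 to 1.22 TPM for sham and 0.614 to 3.80 TPM for KPC mice, and the next highest KPC mouse after mouse 1 had 1.20 TPM. Both Tnfrsf25 (death receptor 3) and Tnfrsf4 (OX40) also overlapped, at 1.28 to 2.75 against 0.925 to 5.00 TPM and at 0.212 to 1.83 against 0.161 to 1.24 TPM. Without KPC mouse 1 the highest KPC value of Tnfrsf25 was 2.60 TPM. Tnfsf15, the ligand of death receptor 3, and Tnfsf8, the ligand of CD30, did not exceed 0.170 TPM and 0.679 TPM in any library. In the same tissue the 7 T cell markers summed to 3.98 to 5.89 TPM for sham and 5.25 to 8.50 TPM for KPC mice. Differences were positive for 6 of 6 tested, against 46.9% of all genes. Of these, 2 had an unadjusted limma p under 0.05, where 7.61% of all genes were higher. The part of T cells was not tested. Tnfrsf18 and Cd27 overlap other genes on the opposite strand, Tnfrsf9 overlaps Camta1 on the opposite strand, and no strand setting of the counting is given, so reads of these partners cannot be told apart.

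The remaining receptors showed no shared direction. Cd40, which activates antigen-presenting cells, ranged from 1.46 to 4.72 TPM for sham and from 1.94 to 3.36 TPM in KPC mice 2 to 5, with 18.7 TPM in KPC mouse 1. Its log2 difference was 0.44 ± 0.56 with all mice and -0.12 ± 0.31 without that mouse. The RANKL system, known from bone, was present mainly through its receptors. Tnfsf11 (RANKL) reached 0.793 TPM in KPC mouse 1 and at most 0.348 TPM elsewhere, while Tnfrsf11a (RANK) stood at 2.32 ± 0.795 and 2.79 ± 1.05 TPM. Tnfrsf11b, which encodes the decoy receptor osteoprotegerin, stood at 4.17 ± 1.69 TPM for sham and 3.06 ± 1.35 TPM for KPC mice, and had the lowest log2 difference of the family at -0.46 ± 0.42 (limma adjusted p = 0.658). Ngfr, the low-affinity neurotrophin receptor, spanned 4.43 to 27.5 TPM for sham and 3.04 to 36.2 TPM for KPC mice, with a log2 difference of -0.01 ± 0.66 that was -0.47 ± 0.59 without KPC mouse 1. Tnfrsf19 (TROY) stood at 2.17 ± 0.585 and 1.67 ± 0.742 TPM and Eda2r, a receptor for ectodysplasin, at 1.58 ± 0.544 and 1.41 ± 0.294 TPM, sham first.

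In order of mean level over all mice, Tnfrsf1a (119 TPM) stood first, and its range did not meet that of any other gene of the family. Ltbr (53.2 TPM) came next, with a range of 44.3 to 73.3 TPM that Tnfrsf12a reached in KPC mice 1 and 2. Tnfrsf12a (29.4 TPM), Fas (28.6 TPM) and Tnfsf12 (28.5 TPM) followed and did not differ beyond their spread, and then came Tnfrsf1b (17.4 TPM) and Ngfr (14.0 TPM), whose ranges overlapped. Tnfsf13 (7.85 TPM), Tnfsf10 (6.25 TPM), Tnfrsf21 (5.33 TPM), Tnfrsf10b (4.71 TPM) and Cd40 (4.64 TPM) came next with overlapping ranges, and the other 21 genes had means under 4 TPM. The 12 ligands together summed to 32.2 to 53.4 TPM for sham and 44.0 to 75.9 TPM for KPC mice, and the 21 receptors to 251 to 291 TPM and 264 to 433 TPM. The highest KPC sums without KPC mouse 1 were 55.9 TPM for ligands and 328 TPM for receptors.

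A single mouse set much of the spread. KPC mouse 1 had the highest value of the 10 libraries for 19 of the 27 tested genes and lay above the sham mean for 25. Its median log2 difference from the sham mean was 1.10, against 0.27, 0.12, 0.26 and 0.13 in KPC mice 2 to 5 and -0.13 to 0.13 in single sham mice. The SD of the log2 values was larger in KPC than in sham mice for 21 of 27 genes, and for 11 of 27 once KPC mouse 1 was left out. Tnfsf10 and Tnfrsf19 were the exceptions that lay below the sham mean in KPC mouse 1.

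**Figure D3:**
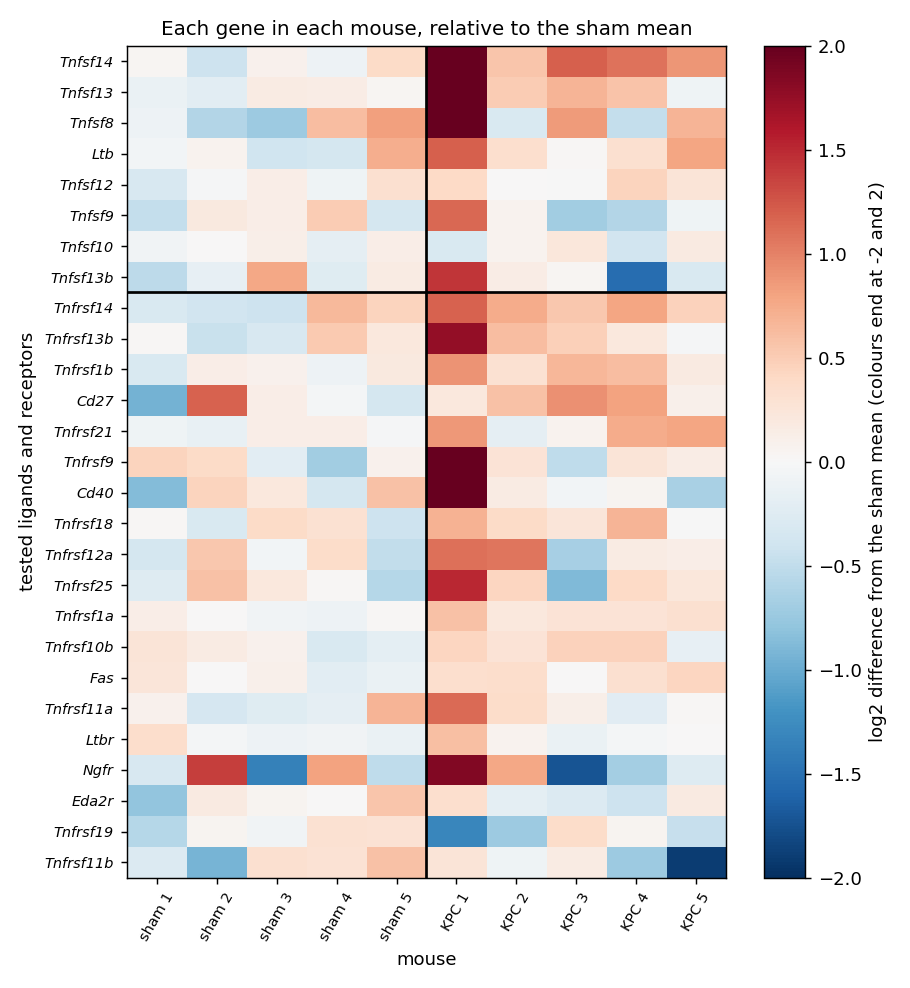
Log2 difference of each tested gene (rows, ligands above the line and receptors below) from the sham mean in each mouse (columns), in red where higher and blue where lower, with colours ending at -2 and 2. The column of KPC mouse 1 is red for 25 of 27 genes. Tnfrsf1a lies above the sham mean in all 5 KPC mice, as do Ltb, Tnfsf14, Fas, Cd27, Tnfrsf1b and Tnfrsf14.

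Further genes of the pathway were read from lists and from the same limma fit. The lists too were chosen with earlier results of these data known, so their shares are descriptions and not tests. At an adjusted p under 0.05 over all genes, none of the listed genes passed. Of genes responsive to TNF, 8 of 16 were higher at an unadjusted p under 0.05 and 0 lower, where 7.61% and 5.91% of all genes were, and the median log2 difference was 0.65. Without KPC mouse 1, 8 of 15 were higher, against 7.14% of all genes, with a median of 0.60. Nfkbia, the inhibitor that NF-kB induces as feedback, stood at 56.3 ± 9.18 TPM for sham and 95.9 ± 25.2 TPM for KPC mice, with an adjusted p of 0.0795 by limma. Icam1, an adhesion molecule for leukocytes, stood at 13.1 ± 1.23 and 21.04 ± 3.26 TPM (adjusted p = 0.0835 by limma), and Sele, which encodes E-selectin of activated endothelium, at 0.251 ± 0.0729 and 1.22 ± 0.556 TPM (adjusted p = 0.0795 by limma). These 3 genes were named for the smallest p of the list. Their groups did not overlap, which held for 3 of the 16 listed genes and for 2.75% of all genes. Of the other members, Sod2, Csf1, Cxcl10 and Il6 had log2 differences between -0.29 and 0.08, and the remaining 9 lay between 0.44 and 2.29. Many of these genes also answer to other signals, so the list does not measure TNF itself.

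Genes that carry the signal from the receptors gave no adjusted call. Of 16 tested adapters and ligases, 4 were higher and 3 lower at an unadjusted p under 0.05, where 7.61% and 5.91% of all genes were. Their median log2 difference was 0.04. The 3 lower were Fadd, the adapter that links death receptors to caspases (6.93 ± 0.689 and 5.67 ± 0.405 TPM, sham first), Tank and Traf3ip2. Without KPC mouse 1 the counts were 4 and 0, where 7.14% of all genes were higher and 744 of 14141 lower. Ripk1, the kinase recruited to TNF receptor 1, stood at 13.8 ± 0.149 TPM for sham and 16.7 ± 1.11 TPM for KPC mice. Its groups did not overlap, as for 2 of the 16 adapters and ligases and 2.75% of all genes. The log2 difference of Ripk1 was 0.31 ± 0.08, with an adjusted p of 0.171 by limma. Traf1, an adapter induced by NF-kB, stood at 1.64 ± 0.683 and 3.01 ± 0.666 TPM and Birc3, a ubiquitin ligase of the receptor complex, at 12.8 ± 3.05 and 17.9 ± 3.00 TPM, sham first. The alternative NF-kB list had 3 of 7 higher and 0 lower, beside the same shares of all genes, with a median of 0.21. Besides Birc3 these were Birc2 at 12.3 ± 1.87 and 15.0 ± 2.72 TPM and the subunit gene Relb at 14.2 ± 1.44 and 16.0 ± 0.621 TPM. Birc2 and Birc3 also stand in the list of adapters and ligases.

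Of 13 death effectors and inhibitors, 3 were higher and 0 lower at an unadjusted p under 0.05, where 7.61% and 5.91% of all genes were. Their median log2 difference was 0.21. Casp8, the caspase that death receptors activate, stood at 28.2 ± 2.07 TPM for sham and 34.2 ± 3.81 TPM for KPC mice. Tnfaip8l2 and Bcl2a1b, both expressed mainly in leukocytes, stood at 9.03 ± 1.56 against 21.8 ± 14.7 TPM and 3.37 ± 0.959 against 13.6 ± 13.4 TPM, with KPC means of 15.3 and 7.75 TPM without KPC mouse 1. Bcl2a1b has near-identical copies, which leaves its level uncertain. Among 6 genes of ligand and receptor shedding 0 reached an unadjusted p under 0.05 in either direction, with Adam17, the protease that releases TNF, at 12.5 ± 1.18 and 13.2 ± 1.55 TPM, Adam10 at 25.1 ± 2.45 and 25.8 ± 2.19 TPM and Rhbdf1 at 22.6 ± 2.91 and 19.1 ± 4.53 TPM. Of 13 superfamily genes beyond the 33, 6 were tested and 1 was higher at an unadjusted p under 0.05. It was Relt, a receptor of blood cells, at 1.43 ± 0.484 and 3.09 ± 2.02 TPM, and without KPC mouse 1 it was not among those under 0.05. Only 1 of the 6 had a positive difference, and their median log2 difference was -0.17, below that of the 33-gene set's tested members (0.34). Without KPC mouse 1, 4 of 6 were positive, with a median of 0.02. The decoy receptor genes Tnfrsf22 and Tnfrsf23 stood at 4.58 ± 0.851 against 3.57 ± 0.666 TPM and 4.25 ± 0.652 against 3.64 ± 0.399 TPM.

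**Figure D4:**
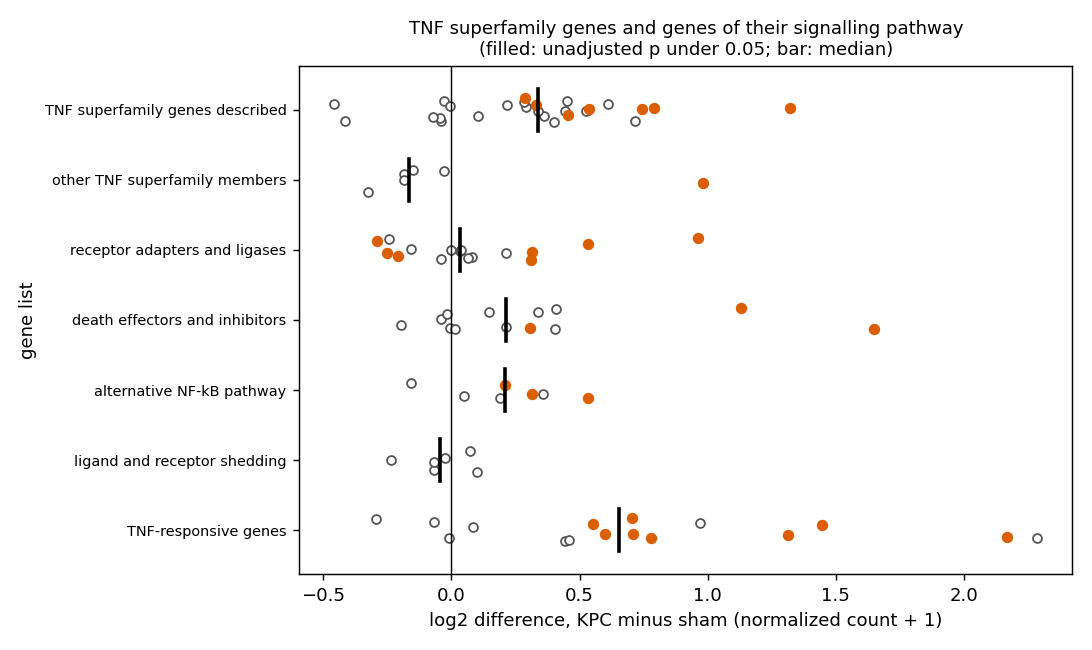
Log2 difference between KPC and sham mice (x axis, on normalized count + 1) of each tested gene, by list (y axis), with filled points for an unadjusted p under 0.05 and a bar at each list's median. The median of the TNF-responsive genes is 0.65 and that of the 33-gene set's tested members 0.34, while the shedding list sits near 0. That of the other TNF superfamily members is -0.17.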

How the data were processed

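Visceral fat RNA was sequenced from 5 sham and 5 KPC mice. The authors deposited TPM and a non-negative signal per gene, counts that the authors normalized between libraries. Salmon, mm10, DESeq and DESeq2 are named per the submitters' processing notes. Per the names that the authors gave the deposited tables, Salmon gave the TPM and DESeq the normalization. The strand setting was not given in the sources used here. The normalized values are not whole reads: at the best step per library 31.1% to 47.3% of values up to 30 fell within 0.05 of a whole number, so no count model was run.

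The test was that of limma 3.58.1 (R 4.3.3) on log2(normalized count + 1), letting the variance follow the mean, for 14203 genes with a mean of at least 10, adjusted by Benjamini and Hochberg over all of them (threshold 0.05). The 2 within-mouse comparisons used exact permutation tests, with 95% intervals by inversion. The limma code was tested on simulated data. Values in every mouse are given for Tnf, Tnfrsf1a, Tnfrsf1b, the 12 members with the smallest p and the 3 most abundant ligands and receptors. Up to 3 genes of each pathway list with the smallest p, and the first 3 markers of a cell list, may be named. Tnfrsf13c, Cxcl10, Csf1, Sod2, Il6, Cd70, Cd79b, Ighm, Epcam, Fadd, Tank and Traf3ip2 were named after their values were seen. A marker gene of the cell lists, and its list's sum, are not reported here. Members and lists were chosen with earlier results of these data known. Alternatives changed the scale, pseudocount, filter, scaling, moderation, weights, block and libraries. Coordinates are from GENCODE vM21 and promoters from RefSeq, both on GRCm38. Depth limits genes under about 10 normalized counts, and counting error of such low genes is not covered by a separate interval.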

Additional observations from a re-analysis of the deposited data

Results flagged for a closer look

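In 54 groups of 5 mice (27 tested genes, each in sham and KPC mice), 5 held a mouse whose gap to its nearest neighbour took more of the group's range, on log2(normalized count + 1), than Dixon's 95% critical value allows, where chance flags about 1 in 20 groups. KPC mouse 1 was the high one for Tnfsf14 (3.00 TPM, others 0.582 to 0.959), Cd40 (18.7 TPM, others 1.94 to 3.36) and Ltbr (73.3 TPM, others 44.3 to 53.2). KPC mouse 3 was low for Fas (24.5 TPM, others 30.4 to 35.2), and sham mouse 1 was high for Ltbr (58.6 TPM, others 48.8 to 50.7).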

How the results depend on the processing

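Under up to 22 alternatives, 321 values of named genes kept their direction and their side of the threshold, 4 turned and 1 passed it. Array weights called 1 member, Tnfrsf1a (log2 difference 0.31), where the reported count was 0. With array weights Tnfsf10 turned to 0.017. With genes below the filter included, 1 of 33 members, Tnfrsf13c, was lower at an unadjusted limma p under 0.05, as were 916 of all 16586 genes. Tnfrsf13c had a mean of only 5.29 normalized counts. Leaving out each mouse in turn, members higher at an unadjusted limma p under 0.05 numbered 4 to 7, against 5.53% to 8.19% of all genes. None passed adjustment in these fits, and the median difference over members was 0.17 (without KPC mouse 1) to 0.43. Tnfsf10 ran from -0.11 to 0.043, turning to 0.023 without KPC mouse 1 and 0.043 without KPC mouse 4. Ltbr ran from -0.024 (without KPC mouse 1) to 0.19. The within-mouse difference of Tnfrsf12a and Tnfsf12 ran from -0.087 to 0.34, and turned to -0.06 without sham mouse 5 and -0.087 without KPC mouse 2. The cause was not tested. Leaving out sham mice 4 and 5 together was an alternative chosen after seeing the data. It left 5 of 27 members higher at an unadjusted limma p under 0.05, against 5.69% of all genes.

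Samples of both groups are numbered 1 to 5, and same-numbered mice had correlated deviations of 0.0051 to 0.19, not all over 0.1. Mice numbered 1, 2, 3 and 5 also share the first number of their titles across groups. Sham and KPC mice with the same title number had a median correlation of 0.042, and other pairs 0.0052. The labels do not say what either number marks, and these correlations cannot show whether mice shared a cage or batch. Sham mice 2 and 5 correlated best with their own number and sham mice 1, 3 and 4 with another. With that number as a replicate block, 5 of 27 members were higher at an unadjusted limma p under 0.05, against 7.18% of all genes, and 0 passed adjustment. With the first number of the titles as a block the counts were also 5 and 0, against 7.44% of all genes at the unadjusted p. The blocked within-mouse difference was 0.21 for the TNF receptors and 0.14 for Tnfrsf12a and Tnfsf12. Over all genes, calls numbered 7 higher and 1 lower as reported, 172 and 28 with array weights, 2 and 0 on log2(TPM + 1), and 67 and 4 without KPC mouse 1. Low abundance limits Tnf, Lta, Tnfsf11, Tnfsf15, Tnfrsf4 and Tnfrsf13c most.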
